A study of Mus musculus with 4 samples.

Results

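The genes described here present antigen on MHC class I and CD1d molecules: the classical class I chains H2-K1 and H2-D1, the non-classical chains H2-T23 and H2-M3, the shared light chain B2m, the peptide-loading genes Tap1, Tap2 and Tapbp, and the lipid-presenting chain Cd1d1. They were taken by name, with every array probe that carries 1 of these 9 names, which gave 9 of the 31490 names on the array and 16 of its 45281 probes. RNA of whole thymus from C57BL/6 mice was read on Illumina MouseWG-6 bead arrays, with 2 samples of a miR-181d transgenic line (called Tg-8) and 2 samples of a miR-181d knockin line. The labels state neither the promoter of the transgene nor the design of the knockin allele, and they give no age or sex. Every value below places 1 engineered line against the other, since no wild-type sample was used. Nothing in the labels says that the samples of a line came from separate mice. The p-values rest only on the spread between these samples, taken partly from each probe and partly from all probes together.

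Class I molecules carry peptides made in the cytosol to the cell surface, where CD8 T cells read them. Peptides cut by the proteasome are pumped into the endoplasmic reticulum by the TAP transporter, a pair of Tap1 and Tap2, and tapasin, the product of Tapbp, holds the empty class I chain beside the pump until a peptide fits. Class I chains generally need B2m to reach the surface in normal amounts, and CD1d pairs with B2m too but carries lipids. In the thymus, class I on epithelium and other cells selects CD8 T cells, and CD1d on double-positive thymocytes selects natural killer T (NKT) cells.

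The microRNA that both lines alter, encoded at chr8:84178759-84178781 on the minus strand, belongs to the miR-181 family, whose members share their seed and are abundant in immature thymocytes. The mature sequences from RefSeq (build GRCm38.p6) are shown because the seed, bases 2 to 8 in capitals, is what the engineered microRNA shares with its relatives.
mmu-miR-181d-5p: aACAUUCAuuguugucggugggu
mmu-miR-181c-5p: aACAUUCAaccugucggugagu
mmu-miR-181a-5p: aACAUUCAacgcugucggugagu

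Promoter sequences of 7 of the 9 genes were found in the RefSeq table. The 250 bases before the annotated start are printed for the class I chains, to show what these related genes share, and for B2m and Tap1 beside them. Capitals mark matches, on either strand, to 4 motifs known from class I promoters: the interferon-stimulated response element core GAAANNGAA, the interferon regulatory factor site AAGTGAAA, the NF-κB site GGGNNTTCC and the cAMP response element half-site TGACG.
H2-D1, chr17:35262844-35263093, plus strand: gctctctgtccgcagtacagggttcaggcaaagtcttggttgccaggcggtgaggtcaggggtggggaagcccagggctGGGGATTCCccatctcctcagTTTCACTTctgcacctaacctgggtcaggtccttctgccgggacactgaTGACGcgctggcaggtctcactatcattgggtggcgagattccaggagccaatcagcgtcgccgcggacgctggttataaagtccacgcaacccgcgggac
H2-K1, chr17:34000348-34000597, minus strand: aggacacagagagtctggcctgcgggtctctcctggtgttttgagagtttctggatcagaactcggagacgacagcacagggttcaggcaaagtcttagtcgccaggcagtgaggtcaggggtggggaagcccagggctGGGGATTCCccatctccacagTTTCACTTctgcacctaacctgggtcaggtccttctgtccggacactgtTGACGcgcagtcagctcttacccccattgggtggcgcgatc
H2-M3, chr17:37269984-37270233, plus strand: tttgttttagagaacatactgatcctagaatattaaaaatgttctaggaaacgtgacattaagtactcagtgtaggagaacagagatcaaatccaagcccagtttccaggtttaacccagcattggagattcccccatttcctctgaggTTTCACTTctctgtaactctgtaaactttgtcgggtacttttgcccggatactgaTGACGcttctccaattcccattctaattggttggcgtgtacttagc
H2-T23, chr17:36032702-36032951, minus strand: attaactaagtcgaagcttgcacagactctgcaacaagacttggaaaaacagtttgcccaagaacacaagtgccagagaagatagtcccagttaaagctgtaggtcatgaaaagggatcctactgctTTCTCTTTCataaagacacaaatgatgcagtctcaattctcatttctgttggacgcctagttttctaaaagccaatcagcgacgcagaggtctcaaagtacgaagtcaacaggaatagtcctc
B2m, chr2:122147437-122147686, plus strand: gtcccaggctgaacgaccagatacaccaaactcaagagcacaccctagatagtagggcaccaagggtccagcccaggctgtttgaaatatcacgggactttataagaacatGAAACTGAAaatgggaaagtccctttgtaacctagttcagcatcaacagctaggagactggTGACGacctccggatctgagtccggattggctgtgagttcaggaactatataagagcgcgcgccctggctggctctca
Tap1, chr17:34187306-34187555, plus strand: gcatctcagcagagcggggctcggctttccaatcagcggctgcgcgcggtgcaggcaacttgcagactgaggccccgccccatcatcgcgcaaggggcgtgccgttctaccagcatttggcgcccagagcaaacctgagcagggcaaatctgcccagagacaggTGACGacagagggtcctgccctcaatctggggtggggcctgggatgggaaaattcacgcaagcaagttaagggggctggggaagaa

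H2-D1 and H2-K1 shared the same AAGTGAAA, GGGNNTTCC and TGACG matches, and their windows were 91.0% identical over the 177 columns of their best local alignment. H2-M3 held AAGTGAAA and TGACG, H2-T23 held GAAANNGAA alone, B2m held GAAANNGAA and TGACG, and Tap1 held TGACG alone. Over all 32851 promoter windows of the table, 1.36% held AAGTGAAA, 4.98% held GGGNNTTCC, 7.13% held GAAANNGAA and 17.8% held TGACG. For H2-K1 the table has 2 windows, and the more upstream start was used. Tap1 and Psmb9, an immunoproteasome subunit, start 225 bases apart on opposite strands, so the window of Tap1 overlaps the promoter of Psmb9. Tapbp held none of these motifs and its window is not printed. The motifs were chosen with these sequences in view, no match overlaps another, and matches describe letters only.

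Before the results, the arrays need a word. The median signal was 140.5 to 145.8, and a background band set for each array, at its most common signal plus 3 SDs, put 41.0% to 42.7% of probes above its limit of 149.3 to 154.8. Thymocyte markers were present: 14 of 15 measured genes were above background on at least 1 array, and both Cd8a probes were not, whereas Cd8b1 was bright. Knockin replicate 2 stood apart by sex. The X-inactivation transcript Xist read 4366, 4392 and 4570 on the other arrays and 129.5 on knockin replicate 2, where the Y-linked Ddx3y read 3519 against 484.4 to 553.7 elsewhere. The knockin samples were therefore from different animals, and sex and animal cannot be told apart within that line. By these transcripts both transgenic samples read as female, so the lines also differ in their mix of sexes, and every genotype difference below carries that imbalance. All 4 arrays came from 1 slide, with each line at its own pair of positions, so position and genotype cannot be told apart.

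Genotype gave no member a difference past the threshold. With limma on background-corrected, quantile-normalised log2 intensity and a Benjamini-Hochberg adjusted p under 0.05 over all probes, 0 of the 16 probes passed, beside 36 of 45281 probes in all (0.0795%, made up of 0.0508% higher and 0.0287% lower in transgenic thymus), and the lowest adjusted p was 0.484. At an unadjusted p under 0.05 there were 3 of 16, beside 4.63% of all probes. These were H2-D1 and 1 probe of H2-T23, both lower in transgenic thymus (2.46% of all probes were), and Tap1, higher in it (2.17%). Without knockin replicate 2 there were 2 of 16 at that level and 0 past the adjusted threshold, beside 3.95% and 0.197% of all probes. Of the 16 probes 13 were above background on all 4 arrays, 1 probe of Tapbp on 3, and 1 probe each of B2m and H2-D1 on none. Over the 14 probes above background on at least 1 array, 7 were below 0 and 7 above, with a median log2 difference (transgenic minus knockin) of -0.020, against 0.001 over all 21088 such probes.

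What the members did show was a difference between the knockin arrays. On normalised log2 intensity, 12 of the 13 probes above background on all arrays were higher on knockin replicate 2, the male sample, than on knockin replicate 1, against 47.8% of the 17103 probes of that kind. The median gap was 0.26 for the members and -0.011 for all those probes. Knockin replicate 2 was the highest of the 4 arrays for 9 of the 13, a share of 69.2% beside 24.6% of all such probes. At the other end, knockin replicate 1 was the lowest array for 6 of the 13, beside 3609 of the 17103. Without regard to sign, the median gap of the members was 0.26 between the knockin arrays and 0.076 between the transgenic arrays, against 0.14 and 0.16 for all those probes. With median scaling in place of quantile normalisation all 13 were higher on knockin replicate 2, but so were 74.6% of all probes, with median gaps of 0.44 and 0.14. Without background correction, with a smaller offset and with cyclic loess the count was again 12 of 13.

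**Figure D1:**
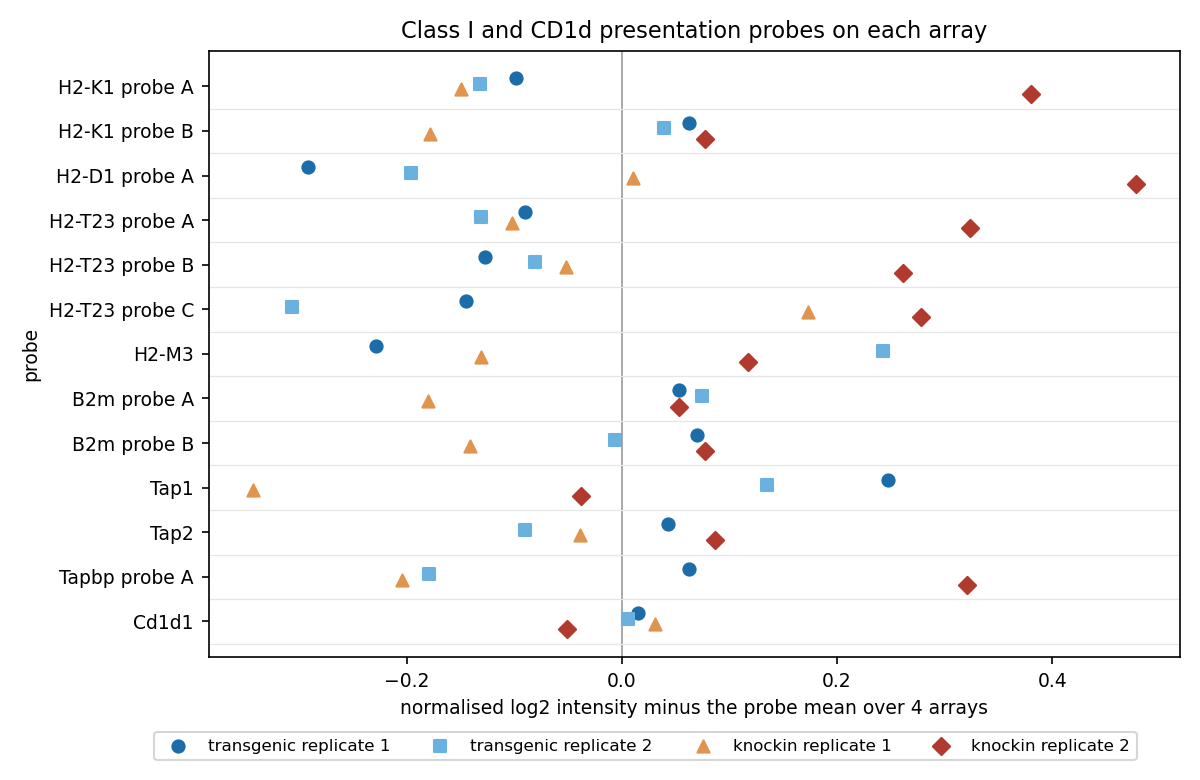
Each row is 1 of the 13 probes above background on all arrays (letters order the probes of a gene from the brightest), and the x axis is its normalised log2 intensity minus its mean over the 4 arrays. Each marker is 1 array. Knockin replicate 2 lies far to the right of the other 3 arrays for the brighter H2-K1 probe, H2-D1 and both brighter H2-T23 probes, while the Cd1d1 markers almost coincide. For Tapbp it is also the highest, but less set apart, at log2 8.17 before centring against 7.64 to 7.91 on the other arrays.

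Among the classical chains, which present peptides to CD8 T cells, H2-D1 had the widest spread of all members. Its bright probe read a signal of 3682 and 3479 in transgenic thymus, and the knockin samples read 4272 (replicate 1) and 6579 (replicate 2). The groups did not overlap, and knockin replicate 2 stood well above its own partner. On normalised log2 intensity the means were 11.82 ± 0.067 in transgenic and 12.31 ± 0.33 in knockin thymus (SD, n = 2 each). The difference of -0.49 (SE 0.148, 95% interval -0.82 to -0.16), or 1.40-fold higher in knockin thymus, had an unadjusted p of 0.00845 and did not pass (limma adjusted p = 0.803). Without knockin replicate 2 it was -0.25, and without knockin replicate 1 it was -0.72 (adjusted p = 0.0795). The second H2-D1 probe, at 133.0 to 140.8, was not above background on any array.

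H2-K1, the other classical chain, showed the same high array on its brighter probe. The signal was 1044 and 855.7 in transgenic thymus, and 902.8 and 1496 in the knockin samples. Here knockin replicate 1 lay between the transgenic arrays in signal, and the groups overlapped. The knockin arrays differed by log2 0.53 after normalisation (1.44-fold), a gap matched or passed in size by 2.35% of the probes above background on all arrays. The genotype difference was -0.23 (SE 0.157, 95% interval -0.58 to 0.12, adjusted p = 1.00), and without knockin replicate 2 it turned to 0.035. The dimmer H2-K1 probe read 309.8 and 269.7 in transgenic and 249.5 and 325.8 in knockin thymus, with a difference of 0.10 (SE 0.116), so the probes of this gene differed in sign. H2-K1, H2-D1 and their neighbours are closely related genes, their older names overlap in the RefSeq table, and a probe may read several of them.

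H2-T23 encodes the Qa-1 chain, a non-classical class I molecule that presents leader peptides of other class I chains to receptors of natural killer cells and T cells. All 3 of its probes were above background on all arrays. The brightest read 3699 and 3194 in transgenic thymus and 3459 and 5170 in knockin thymus. The next read 3535 and 3231 against 3494 and 4882. On both, knockin replicate 1 was near the transgenic arrays and knockin replicate 2 stood alone, with genotype differences of -0.22 (SE 0.140) and -0.21 (SE 0.123) that came to -0.009 and -0.052 without that array.

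The third H2-T23 probe behaved differently. It read 1063 and 798.3 in transgenic thymus and 1168 and 1463 in knockin thymus. Both knockin arrays were above both transgenic arrays, and they differed by only 0.11 after normalisation. Its difference of -0.45 (SE 0.109, 95% interval -0.70 to -0.21), 1.37-fold higher in knockin thymus, had an unadjusted p of 0.00221 and the lowest adjusted p of the members (limma, 0.484). With knockin replicate 2 left out it was -0.40 (adjusted p = 1.00). Leaving out knockin replicate 1 gave -0.50 (adjusted p = 0.458), so its size depended less on either knockin array than that of the other H2-T23 probes.

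H2-M3, a non-classical chain that presents N-formylated peptides of bacterial and mitochondrial origin, was the member whose transgenic arrays differed most. It read 878.4 and 1002 in transgenic and 834.1 and 1150 in knockin thymus. After normalisation the transgenic arrays were 0.47 apart and the groups overlapped fully. The difference was 0.014 (SE 0.157, 95% interval -0.34 to 0.37), an interval that leaves room for a change of about the size measured for H2-K1 in either direction.

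B2m, the light chain that pairs with these chains, was read by 2 bright probes and by 1 that was not above background. The bright probes read 21355 and 21553 in transgenic thymus against 18459 and 23035 in knockin thymus, and 21404 and 19873 against 18983 and 23454. The low array on both was knockin replicate 1, and knockin replicate 2, at log2 14.40 and 14.42, was close to the transgenic range of 14.34 to 14.42. The differences were 0.13 (SE 0.113, 95% interval -0.13 to 0.38) and 0.063 (SE 0.113, 95% interval -0.19 to 0.32). The dimmer H2-K1 probe had the same low array, with knockin replicate 1 at log2 7.61 and the other arrays at 7.83 to 7.86.

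Among the loading genes, Tap1 was the only member probe higher on both transgenic arrays than on both knockin arrays. It read 647.8 and 514.9 in transgenic thymus and 407.7 and 568.4 in knockin thymus. In raw signal knockin replicate 2 lay between the transgenic arrays, and the separation appeared after normalisation, at log2 9.09 and 8.98 against 8.50 and 8.81. The difference was 0.38 (SE 0.124, 95% interval 0.10 to 0.66), 1.30-fold higher in transgenic thymus, with an unadjusted p of 0.0125 and a limma adjusted p of 0.883. Knockin replicate 1 was the low array. Without it the difference was 0.23, and without knockin replicate 2 it was 0.53 (adjusted p = 0.475).

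Counting the separated members against the background, 3 of the 13 probes above background on all arrays were lower on both transgenic arrays (H2-D1 and 2 of H2-T23), beside 15.3% of all such probes, and 1 was higher (Tap1), beside 15.5%. Together these 4 of 13 stand beside 30.8%. For the middle H2-T23 probe that separation was narrow, with knockin replicate 1 at log2 11.79 and the nearer transgenic array at 11.76.

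Tap2, the partner of Tap1 in the transporter, did not show the same order of arrays. It read 2460 and 1942 in transgenic and 2174 and 2719 in knockin thymus, with a difference of -0.047 (SE 0.108, 95% interval -0.29 to 0.20). Tapbp, the tapasin gene, read 320.3 and 248.6 in transgenic and 253.8 and 384.6 in knockin thymus on its brighter probe. There the knockin arrays were 0.53 apart, and the genotype difference of -0.12 (SE 0.166) turned to 0.15 without knockin replicate 2. Its dimmer probe, at 149.7 to 186.8 and above background on 3 arrays, had a difference of 0.008 (SE 0.137).

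Cd1d1, the chain that presents lipids to NKT cells, was the steadiest member. It read 1430 and 1205 in transgenic and 1315 and 1444 in knockin thymus. After normalisation all 4 arrays lay between 10.27 and 10.35, the narrowest range of the 13 probes (0.081). The difference was 0.020 (SE 0.101, 95% interval -0.21 to 0.25), and that interval bounds the change that this number of arrays leaves room for. Among the 13 probes above background on all arrays, Cd1d1 was also the single one that was not higher on knockin replicate 2 than on knockin replicate 1 after quantile normalisation.

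**Figure D2:**
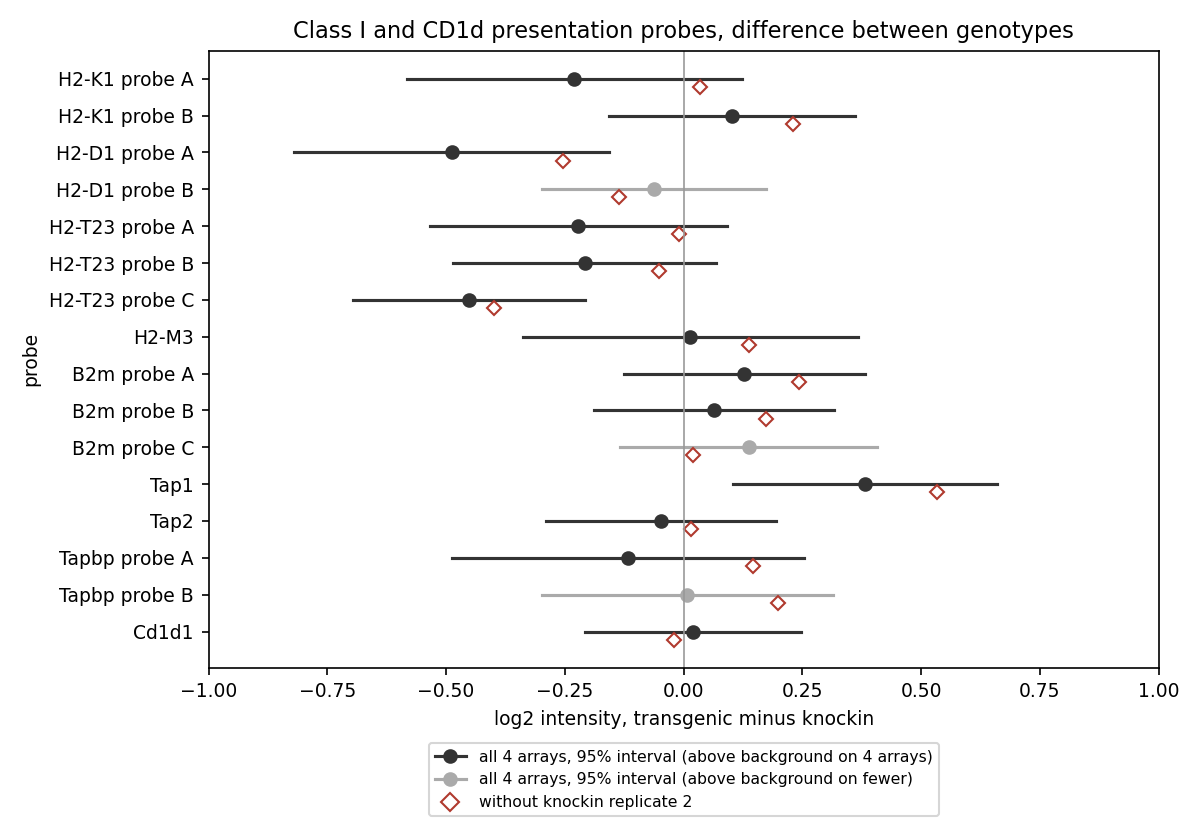
Filled points give the log2 intensity difference, transgenic minus knockin, of each of the 16 probes with limma's 95% interval, in grey for probes above background on fewer than 4 arrays. Open red diamonds give the value without knockin replicate 2, which moves the brighter H2-K1 probe from -0.23 to 0.035 and leaves the dimmest H2-T23 probe at -0.40.

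**Figure D3:**
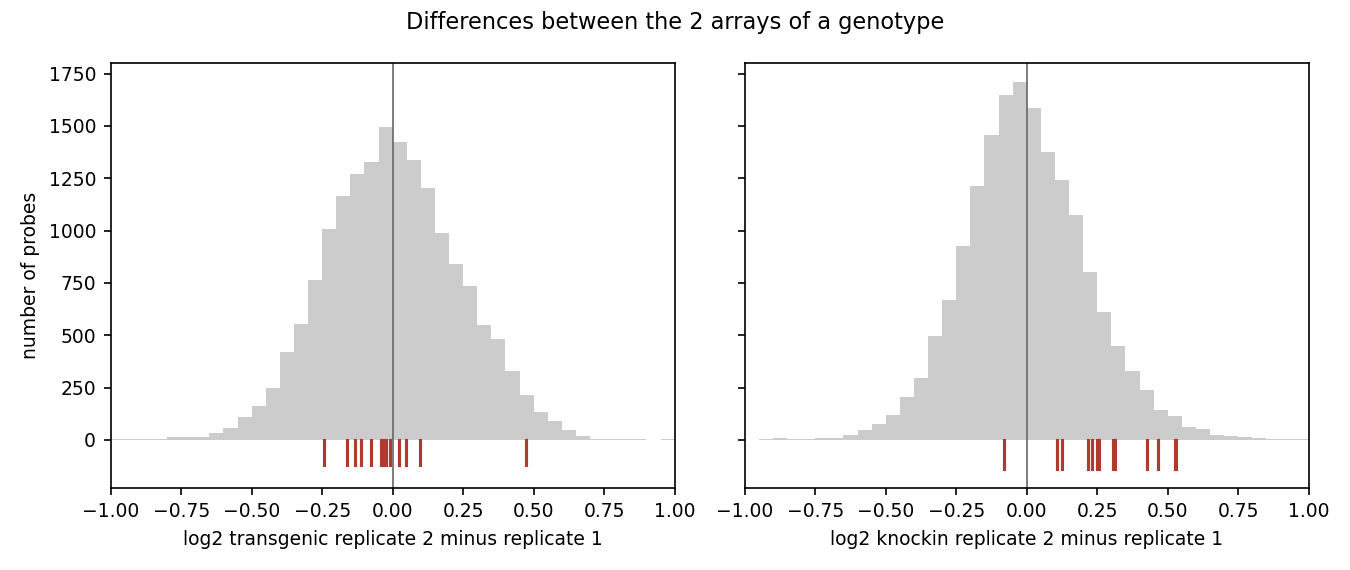
Grey bars count the 17103 probes above background on all arrays by the normalised log2 difference between the arrays of 1 genotype (left transgenic, right knockin), and red ticks under the axis mark the 13 member probes. The ticks spread around 0 on the left except for H2-M3 at 0.47, and all but Cd1d1 lie to the right of 0 among the knockin arrays.

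The genes nearest to H2-D1 in their pattern over the 4 arrays were Gsn, Stmn1, Igfbp4, Sprr2d and Apoe. Likeness was the Euclidean distance between normalised log2 values centred on their own mean, over 4 arrays and 9785 named probes of other genes above background on all arrays, and it was 0.043, 0.067, 0.070, 0.080 and 0.087. The distance from H2-D1 was 0.28 for the brighter H2-K1 probe and 0.29 to 0.32 for the H2-T23 probes. It was 0.44 for Tapbp, 0.53 for Tap2, 0.59 for H2-M3, 0.61 for the dimmer H2-K1 probe, 0.59 and 0.64 for B2m, 0.64 for Cd1d1 and 0.89 for Tap1. With 4 arrays such distances only describe which probes share a high array.

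Other class I chains of the H2 complex, from a list of 23 names, showed the same array difference. Of 22 measured, 13 were above background on at least 1 array, 12 of these were higher on knockin replicate 2 than on knockin replicate 1, and 10 had their highest value there, with a median gap of 0.30. None passed the genotype test (limma, 0 of 22, with 1 at an unadjusted p under 0.05), and the median difference was -0.001. H2-M2 was at 0.29 (SE 0.102, unadjusted p = 0.0173, adjusted p = 0.953), H2-Q5 at -0.26 (adjusted p = 1.00) and H2-L at -0.23 (adjusted p = 1.00). The brighter H2-L probe read 6937 and 5872 in transgenic and 6522 and 10143 in knockin thymus. H2-L has no entry in the RefSeq table of the C57BL/6J assembly, so what its probes read is uncertain.

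Among genes that supply and load peptides, of 18 measured, 0 passed and 0 had an unadjusted p under 0.05 by limma, with a median of 0.027 over the 15 above background. Psmb8, an immunoproteasome subunit encoded between Tap1 and Tap2, was at -0.13 (SE 0.111) and the proteasome activator subunit Psme2 at 0.18 (SE 0.162). Ggt1, also on the list and in its counts, was at 0.15 (SE 0.119), and its place among genes that supply and load peptides is uncertain. Psmb9, which starts beside Tap1, was chosen for that place. It read 3382 and 3166 in transgenic and 2813 and 3738 in knockin thymus, with a difference of 0.096 (SE 0.118), so it did not show the separated groups of Tap1.

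Regulators of class I transcription gave 0 calls among 25 measured (limma, 1 at an unadjusted p under 0.05), with a median of -0.052 over 23. Jak1, a kinase of interferon receptors, was at 0.27 (SE 0.110, unadjusted p = 0.0363) and the NF-κB subunit Rela at -0.24 (SE 0.118). Nlrc5, the transactivator of class I genes, read 818.3 and 610.1 in transgenic and 431.7 and 798.8 in knockin thymus. Like Tap1 it had its lowest value on knockin replicate 1, and its difference was 0.39 (SE 0.204, adjusted p = 1.00). Leaving out knockin replicate 2 gave 0.77 (limma adjusted p = 0.0667), and leaving out knockin replicate 1 gave 0.014.

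Genes of lipid loading onto CD1d gave 0 calls among 16 measured (limma, none at an unadjusted p under 0.05), with a median of 0.044 over 15. The adaptor subunit Ap3b1 was at 0.22 (SE 0.107) and the lipid transfer protein Gm2a at 0.22 (SE 0.146). Partners of NKT selection also gave 0 calls among 11 (limma), with 3 at an unadjusted p under 0.05, beside 4.63% of all probes. Klrd1 and Cd160, receptors of natural killer and innate-like lymphocytes, were at 0.58 (SE 0.142, adjusted p = 0.484) and 0.44 (SE 0.143, adjusted p = 0.876), and Egr2, a factor NKT cells need, at -0.38 (SE 0.105, adjusted p = 0.683). For all 3 of these genes the groups did not overlap, beside 30.8% of all probes above background on all arrays. They were named for the smallest p of their list, which favours separated groups. The values without knockin replicate 2 were 0.63, 0.41 and -0.41.

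The list of receptors that bind class I gave 0 calls among 9 measured (limma, none at an unadjusted p under 0.05). Of these 4 were above background, with a median of -0.11. The receptors Klrd1 and Cd160, given above, were counted among the NKT partners and not in this list. The CD8 chain Cd8b1 read 28882 and 25518 in transgenic and 31745 and 30801 in knockin thymus, and after normalisation the groups overlapped (difference -0.11, SE 0.107). Klra1, a class I receptor of the Ly49 family, was at -0.24 (SE 0.110), and its relative Klra2 was not above background on any array. Class I-like chains encoded outside the H2 complex gave 0 calls among 8 (none at an unadjusted p under 0.05), with a median of 0.002 over 5. Mr1, which presents vitamin metabolites, was at -0.098 (SE 0.145) and Mill1 at 0.13 (SE 0.122), and both probes of Cd1d2, the close relative of Cd1d1, were not above background.

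**Figure D4:**
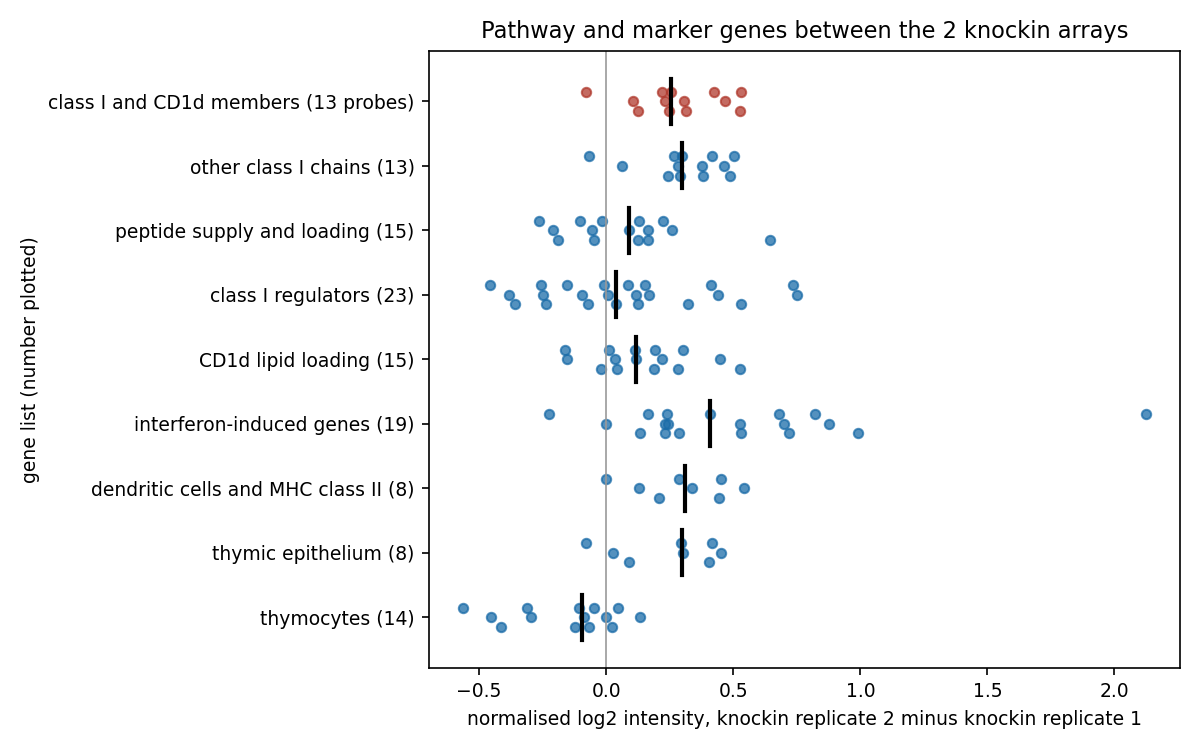
Each point is 1 gene (for the top row, 1 probe) above background, placed by its normalised log2 intensity on knockin replicate 2 minus knockin replicate 1, and black bars are list medians. The medians are 0.26 for the members, 0.30 for other class I chains, 0.41 for interferon-induced genes and -0.096 for thymocyte markers. They are 0.089 for peptide supply and loading, 0.040 for class I regulators and 0.12 for CD1d lipid loading. Dendritic cell and MHC class II genes are at 0.31 and thymic epithelial genes at 0.30.

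Some other gene groups moved with the class I chains between the knockin arrays, and others did so less. Genes of peptide supply and loading were higher on knockin replicate 2 for 8 of 15 above background (median gap 0.089). Class I regulators were so for 13 of 23 (0.040), and genes of CD1d lipid loading for 12 of 15 (0.12). The share was 47.8% over all probes above background on all arrays. Interferon-induced genes, a group whose inducers also raise class I transcription, were higher on knockin replicate 2 for 17 of the 19 above background, with a median gap of 0.41. Their summed raw signal, which is not scaled between arrays, was 20363 to 22456 on the transgenic arrays. It was 19500 and 29382 on knockin replicates 1 and 2. The widest gap was that of Rsad2, picked after its value was seen, at 487.2 and 405.7 in transgenic and 256.9 and 1058 in knockin thymus. By genotype 0 of 23 measured passed (limma, 3 at an unadjusted p under 0.05, beside 4.63% of all probes). The median was -0.10, and its sign turned on 1 array: it was 0.18 without knockin replicate 2 and -0.35 without knockin replicate 1. Irgm1 and Gbp2, interferon-induced GTPases, were at -0.31 (SE 0.113) and 0.27 (SE 0.103), and the chemokine Cxcl9 at 0.28 (SE 0.123).

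All the lists of cell markers but that of thymocytes lay mostly the same way, beside the 47.8% of all probes above background on all arrays. Dendritic cell and MHC class II genes were higher on knockin replicate 2 for 7 of 8, with summed raw signals of 18907 to 24237 in transgenic and 20922 and 30200 on knockin replicates 1 and 2, while Itgax, Flt3, Xcr1 and Ccl22 were not above background on any array. Thymic epithelial genes were higher for 7 of 8 (32061 to 33263, against 31035 and 40240), with Foxn1 and Epcam not above background, and macrophage genes for 8 of 11 (9344 to 9944, against 9610 and 13017). Of the thymocyte markers 3 of 14 were higher on knockin replicate 2 after normalisation, with a median gap of -0.096, while their summed raw signal was slightly higher there (110407 to 122687, against 123724 and 127397). Granulocyte genes were higher on knockin replicate 2 for 9 of 10 (median gap 0.21) and differed by genotype as well. By limma 4 of 10 passed, all lower in transgenic thymus (S100a8, S100a9, Camp and Prg2), beside 0.0287% of all probes. Their summed raw signals were 4277 to 5577 in transgenic and 10286 and 13029 in knockin thymus. B cell, endothelial and fibroblast, and erythroid markers had median knockin gaps of 0.10, 0.095 and 0.28. They were higher on knockin replicate 2 for 5 of 6, 9 of 11 and 4 of 4 above background. By genotype 0 of their genes passed, with 2 of 8, 2 of 12 and 3 of 7 at an unadjusted p under 0.05 (limma), beside 4.63% of all probes. In whole organ RNA a larger share of a cell type and more transcript per cell cannot be told apart, and the part of these groups, and of sex, in the class I values was not tested.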

How the data were processed

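Total RNA of whole thymus was labelled with biotin and hybridised to 1 array per sample, per the labels' protocols. The deposited scanner table holds average bead signal intensity written by GenomeStudio 1.9.0 with no normalisation, per the file headers, and no detection p-value. The authors' deposited value table holds processed intensity (medians of 1.753 to 1.809), whose method is not given in the sources used here. The 45281 probes of that table are not paired with genes, so it served for counts only, on log2(value + 8).

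Signals were corrected by normexp with an offset of 50, taken to log2, quantile-normalised and fitted with limma 3.58.1 in R 4.3.3 (lmFit, eBayes, two-sided), 2 arrays against 2, with Benjamini-Hochberg adjustment over all probes. The code was tested on simulated data. The offset understates differences of dim probes. The number of arrays limits the precision. The eBayes step draws the variance of each probe toward a value shared by all fitted probes. The SEs, intervals and p-values therefore do not rest on a probe's own replicates alone. Of 240 list entries, 201 matched a probe by symbol, 30 by a RefSeq synonym and 9 not at all. The brightest probe stood for a list gene. Named genes were all members and, per list, the 3 with the smallest p. One gene named by this rule is not reported here. Members and lists were chosen with earlier results of these data known. Replicate numbers come from the titles. Deviations of same-numbered arrays correlated at r = -0.36 over 17103 probes, so the numbers were not taken as pairs. Alignments used biopython 1.88.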

Additional observations from a re-analysis of the deposited data

How the results depend on the processing

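By limma, 0 member probes passed in each of the 11 other settings tried, of 16 tested, or of 14 with dim probes left out (the lowest adjusted p was 0.0795, for H2-D1 without knockin replicate 1), and with the replicate number as a block the count was also 0, with 38 probes in all. Same-numbered arrays did not deviate together (r = -0.36). A crossed pairing of replicates was added after seeing the data, and no label gives it. With it 2 member probes (H2-D1 and H2-T23) passed, beside 364 of all 45281 probes. That pairing takes out a deviation already seen in these same arrays, so its counts cannot decide whether the members differ. Over all probes the count was 36 (23 higher, 13 lower) in the reported fit, 3 (3 higher) without background correction, 70 with an offset of 16, 2 (2 higher) with median scaling, 112 with an intensity trend and robust prior, 61 with dim probes left out, and 24 to 89 leaving out 1 array. In the authors' value table it was 0 by limma, with 3299 at an unadjusted p under 0.05, and its probes could not be named here. The member median of -0.020 was -0.082 with median scaling and -0.15 to 0.087 leaving out 1 array, the ends being without knockin replicate 1 and without knockin replicate 2. The same ends for other class I chains were -0.18 and 0.23. Of the values of single member probes, 17 changed sign. With median scaling these were Cd1d1 (-0.040), H2-M3 (-0.032) and the dimmer Tapbp probe (-0.019, and -0.0033 with cyclic loess). Leaving out 1 array gave ranges that crossed 0: -0.046 to 0.17 for a B2m probe, -0.020 to 0.061 for Cd1d1, -0.14 to 0.0093 for the dim H2-D1 probe, -0.50 to 0.035 for the brighter and -0.026 to 0.23 for the dimmer H2-K1 probe, -0.22 to 0.25 for H2-M3, -0.11 to 0.019 for Tap2, -0.38 to 0.15 for the brighter and -0.18 to 0.20 for the dimmer Tapbp probe. The cause was not tested.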
